A study of Mus musculus with 18 samples.

Results

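The genes described here are 8 transcriptional regulators of heart development: Nkx2-5, Tbx5, Tbx20, Mef2c, Hand1, Hand2, Isl1 and Myocd. They were found by their Ensembl identifiers among the 51826 features counted in every library, and all 8 were present. The counts come from ribosome profiling, which sequences the short mRNA fragments that translating ribosomes shield from nuclease. The cells were E14, a mouse embryonic stem cell line, treated with cycloheximide before lysis to hold ribosomes in place. There were 6 groups of 3 libraries, 18 in all, described by the series as biological triplicates. At day 10 of embryoid body differentiation, when the cells grow as aggregates, the groups were Quaking KO, Sam68 KO and WT. At day 0, before differentiation, they were again Quaking KO, Sam68 KO and WT. Quaking and Sam68 both bind RNA and belong to the STAR family, and all lines share the E14 background. The labels do not say whether a KO line is 1 clone. The files give features by identifier and the reference tables hold no Ensembl identifier, so the knocked-out genes and markers of cardiomyocytes or other cell types could not be looked up, and the genotypes rest on the labels.

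Heart muscle forms from mesoderm under a small group of regulators that bind DNA together and switch on one another as well as contractile genes. Nkx2-5 is a homeodomain protein and among the earliest marks of cardiac progenitors, and Tbx5 and Tbx20 are T-box proteins of the early heart. Hand1 and Hand2 are related basic helix-loop-helix proteins, Mef2c is a MADS-box protein, Isl1 is a LIM homeodomain protein of the second heart field, and Myocd is a coactivator that works through serum response factor on cardiac and smooth muscle genes. None of them belongs to heart muscle alone: Hand1 is also used in trophoblast and extraembryonic mesoderm, Hand2 in limb buds and sympathetic neurons, Isl1 in motor neurons and pancreas, and Mef2c in skeletal muscle, endothelium and neurons.

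On GRCm38.p6, RefSeq places Nkx2-5 (ENSMUSG00000015579.4) at chr17:26838664-26844988 and Tbx5 (ENSMUSG00000018263.11) at chr5:119796514-119885220. Tbx20 (ENSMUSG00000031965.15) lies at chr9:24720812-24774303 and Mef2c (ENSMUSG00000005583.16) at chr13:83504017-83667079. Hand1 (ENSMUSG00000037335.13) lies at chr11:57828713-57832147 and Hand2 (ENSMUSG00000038193.4) at chr8:57320983-57324517. Isl1 (ENSMUSG00000042258.13) lies at chr13:116298270-116309688 and Myocd (ENSMUSG00000020542.18) at chr11:65173608-65269989. The spans of Tbx5, Hand1 and Myocd each overlap 1 annotated long noncoding RNA and that of Mef2c overlaps 2. Whether counting used strand is not given in the sources used here, so reads of those RNAs and of the 4 coding genes cannot be told apart where they share bases.

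RefSeq's promoter table (GRCm38.p6) matched 5 of the 8 genes, with 7 start sites. The 250 bases before the start are shown for 3 members. They are the pair with the fewest day 0 counts that the promoter table holds and the member that differed most between the KO lines. The Nkx2-5 start lies inside the gene span given above, and 1 of the 3 Mef2c starts is shown. Capitals mark recognition motifs of the members' own families, searched on both strands: the E-box CANNTG of Hand proteins, the T-box half-site AGGTGT, the Nkx core AAGTG, the Isl core TAATGG, the CArG box of serum response factor and the MEF2 box.
Hand2, chr8:57320733-57320982, plus strand: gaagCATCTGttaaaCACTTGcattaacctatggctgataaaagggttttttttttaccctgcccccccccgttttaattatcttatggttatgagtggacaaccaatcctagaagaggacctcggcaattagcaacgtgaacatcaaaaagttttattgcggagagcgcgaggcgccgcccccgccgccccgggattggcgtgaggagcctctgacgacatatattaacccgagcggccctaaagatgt
Mef2c, chr13:83503784-83504033, plus strand: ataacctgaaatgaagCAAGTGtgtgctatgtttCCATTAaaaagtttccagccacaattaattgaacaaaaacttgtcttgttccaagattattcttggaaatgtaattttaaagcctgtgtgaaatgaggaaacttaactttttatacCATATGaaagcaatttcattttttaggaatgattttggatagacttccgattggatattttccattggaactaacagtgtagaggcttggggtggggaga
Nkx2-5, chr17:26841566-26841815, minus strand: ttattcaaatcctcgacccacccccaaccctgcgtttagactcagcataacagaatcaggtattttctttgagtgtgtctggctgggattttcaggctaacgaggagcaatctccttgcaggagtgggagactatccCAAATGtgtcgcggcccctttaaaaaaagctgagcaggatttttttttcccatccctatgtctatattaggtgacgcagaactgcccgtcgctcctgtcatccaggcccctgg
The E-box was found at 5 of the 7 start sites, against 66.2% of the 32851 promoters in the table. The Nkx core was found at 4 of 7, against 40.7%, and in the Hand2 and Mef2c sequences above it lies inside an E-box. The Isl core was found at 2 of 7, against 6.57%, and the T-box half-site at 1 of 7, against 11.8%. The CArG box and the MEF2 box were found at 0 of 7, against 1.47% and 2.92%. By gene, the E-box was found in 4 of the 5 matched, the Nkx core in 2, and the Isl core and the T-box half-site in 1 each, since 3 of the 7 start sites, including both with the Isl core, belong to Mef2c. These matches describe the letters of the windows and are not evidence of binding.

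Total counts per library ran from 988210 to 10646768. In 3 day 10 libraries, Sam68 KO replicates 2 and 3 and WT replicate 3, the 10 largest features took over 40% of the counts. These are called the dominated libraries below. Without them Sam68 KO keeps only replicate 1 at day 10, and such a fit takes its spread from the other groups. WT replicate 3 was the shallowest after scaling, and 3 counts there equal 7.05 CPM (counts scaled to library size, with TMM factors). It held 1 count each of Nkx2-5, Tbx5 and Myocd. At day 10 the TMM factors were 0.36 in WT replicate 3, 0.53 and 0.49 in Sam68 KO replicates 2 and 3, and 1.01 to 1.19 in the others. The CPM of the dominated libraries, and the day 10 ranges compared below, rest on these factors. Sequencing pool MIX_3 held both KO lines at day 10, MIX_2 the WT line at day 10 with Sam68 KO at day 0, and MIX_1 the other day 0 groups. Pool and group cannot be told apart in a comparison across pools. CPM are not divided by gene length, so levels are compared between groups for a gene and not between genes. In whole embryoid bodies, fewer cells of a type and less RNA per cell cannot be told apart, nor can more mRNA and more ribosomes per mRNA.

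At day 0 the 8 genes were close to the limit of counting. Total counts at day 0 ran from 1373377 to 3019843 in the Quaking KO libraries and from 4629369 to 10646768 in the others. In CPM, the sum over all 8 averaged 4.92 ± 2.23 in Quaking KO, 7.92 ± 2.08 in Sam68 KO and 7.61 ± 1.21 in WT (SD). Summed over all 8, a library held 8 to 18 counts in Quaking KO, 43 to 69 in Sam68 KO and 50 to 88 in WT. Over each group Tbx20 made up most of them, with 11, 8 and 3 counts in Quaking KO, 21, 33 and 34 in Sam68 KO and 46, 29 and 52 in WT. Mef2c, Hand2 and Myocd had 0 counts in all 3 Quaking KO libraries, which allows up to 0.361 CPM (3 counts) for each over the group. Sam68 KO libraries together held 2, 7 and 16 counts of Mef2c, Hand2 and Myocd, and WT libraries 4, 3 and 7. The pooled WT levels of these genes, 0.149, 0.111 and 0.260 CPM, all lay under the 0.361 CPM that the Quaking KO libraries allow. None of the 8 differed between lines at day 0 by edgeR's quasi-likelihood test, with a Benjamini-Hochberg adjusted p below 0.05 over 13701 genes as the threshold, nor by DESeq2. The share of all genes called was 0.365% for Quaking KO vs WT, 1.26% for Sam68 KO vs WT and 3.31% for Quaking KO vs Sam68 KO. At an unadjusted p below 0.05 there were 1, 1 and 2 of the 8, where 6.84%, 9.55% and 15.0% of all genes were. Nearest to the threshold was Myocd, at 0 counts in each Quaking KO library against 5, 7 and 4 counts in Sam68 KO (edgeR adjusted p = 0.0536).

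All 8 genes were higher at day 10 than at day 0 in every line. The edgeR calls were 8 of 8 in Quaking KO, where 34.7% of all genes tested were called higher, 8 of 8 in Sam68 KO (34.9% of all genes) and 8 of 8 in WT (34.9%). Each gene except Tbx20 passed the filter on low counts only through its day 10 libraries, so these counts are given as a description only. In all 72 pairings of a gene, a day 10 group and a day 0 group, the lowest day 10 library lay above the highest day 0 library. The same filter applies here, so this count too is a description only. No such share over all genes is given for comparison, and some gaps were narrow. Isl1 had 2.78 CPM (3 counts) in Quaking KO day 10 replicate 1 and 2.30 CPM (4 counts) in Quaking KO day 0 replicate 2. Nkx2-5 had 1.99 CPM (9 counts) in WT day 10 replicate 2 and 1.63 CPM (11 counts) in Sam68 KO day 0 replicate 3. The counting intervals of each pair overlapped. Together the 8 genes measured 368 to 451 CPM in Quaking KO, 350.03 to 418 in Sam68 KO and 279.6 to 391.9 in WT at day 10. The summed ranges of the 3 lines overlapped. Day 0 and day 10 of a line lay in different pools. A combination of the group means, added after seeing the data, treated pool as an additive term with 1 day effect for all lines. Line, day and pool then take as many terms as there are groups. The combination therefore equals the rise in WT plus that in Sam68 KO minus that in Quaking KO. A pool effect and a rise that differs between lines cannot be told apart in it. Its values are a description too, since the same filter applies. Its log2 fold change was 3.52 for Nkx2-5, 6.10 for Tbx5, 3.57 for Tbx20, 8.05 for Hand1, 3.33 for Isl1, 3.58 for Mef2c, 5.03 for Hand2 and 1.15 for Myocd. The first 4 lay past the threshold, 4 of 8 where 19.4% of all genes were called higher. Isl1, Mef2c, Hand2 and Myocd did not pass it (edgeR adjusted p = 0.0542, 0.946, 0.965 and 0.811). For comparison, taken line by line the log2 fold changes of Mef2c, Hand2 and Myocd were 10.65, 12.38 and 8.46 in Quaking KO, 7.49, 8.06 and 5.02 in Sam68 KO, and 6.74, 9.34 and 4.59 in WT. These 3 genes had 0 counts in Quaking KO at day 0, so their fitted Quaking KO values depend on the method and not on a measured day 0 level. That of Hand2 was 10.91 by DESeq2 and 10.15 after thinning. The counts give only rises of at least 122-fold, 376-fold and 24.0-fold. A larger rise in Quaking KO than in the other lines cannot be read from the fitted values. The combination uses them, so its values for these 3 genes have the same limit.

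**Figure D1:**
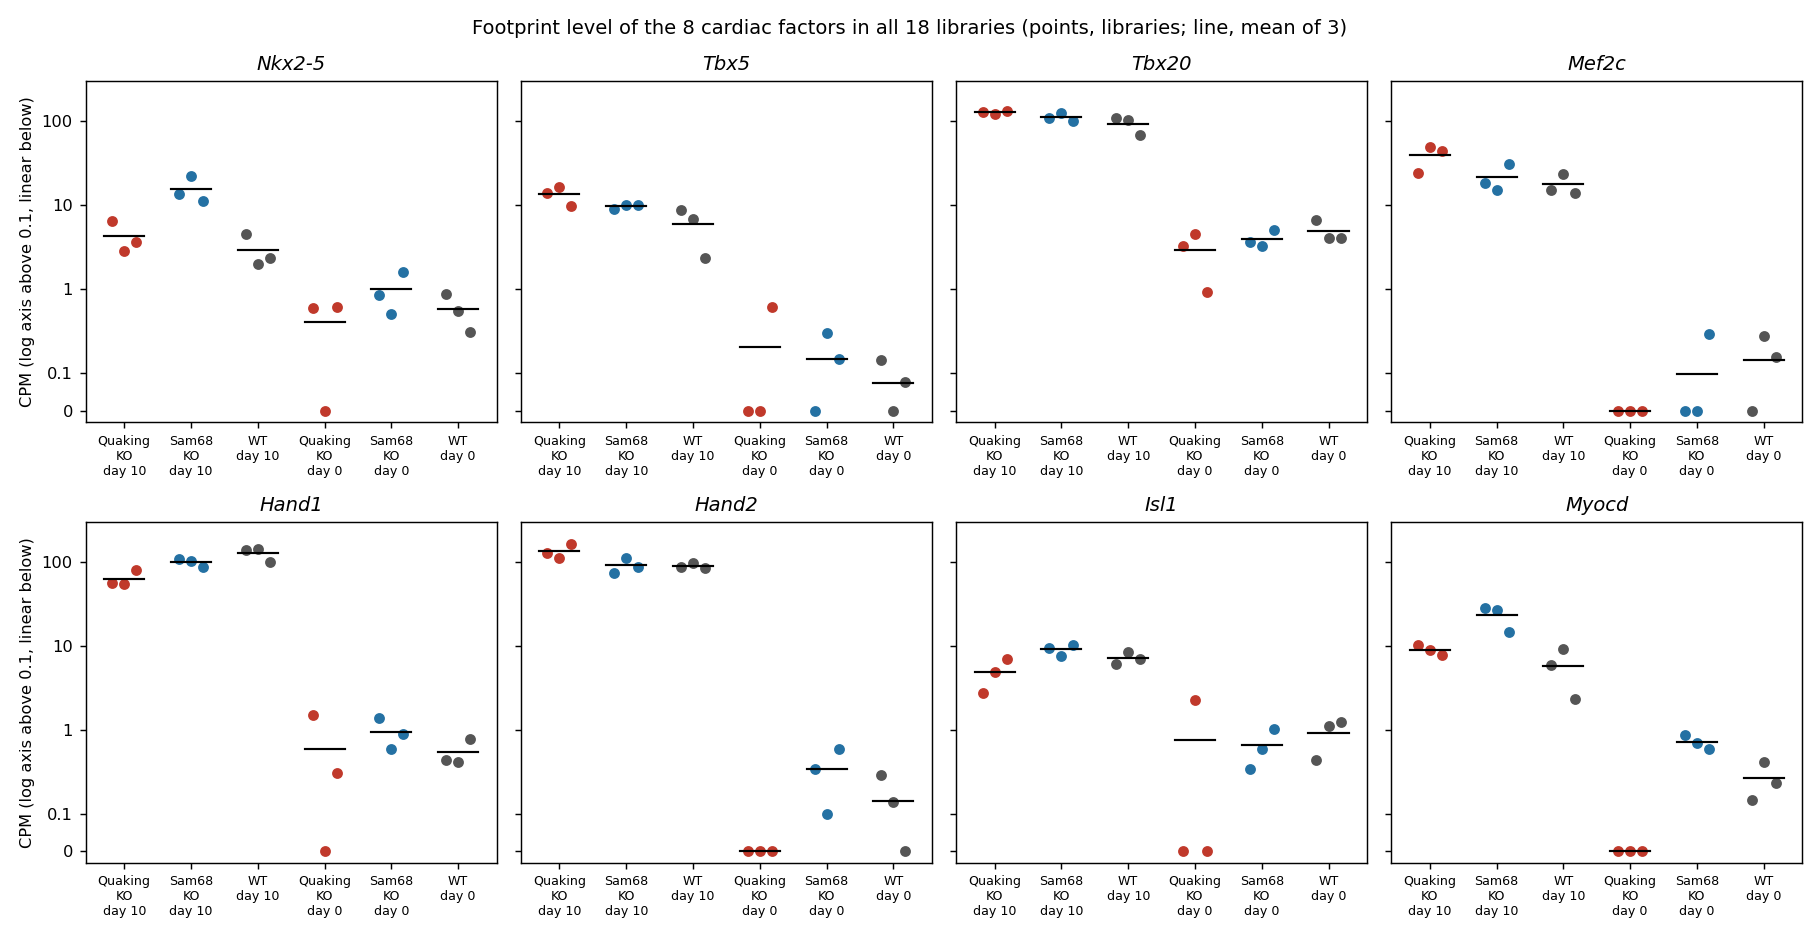
CPM of each of the 8 genes (log axis above 0.1 CPM, linear below) in the 3 libraries of each group, day 10 groups left of day 0 groups, with a line at each mean. Every gene lies higher in all 9 day 10 libraries than in all 9 day 0 libraries, and Mef2c, Hand2 and Myocd sit at 0 in Quaking KO at day 0.

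Of the Hand genes, Hand1 was lower in Quaking KO embryoid bodies. At day 10 it measured 55.7, 54.2 and 79.3 CPM in Quaking KO, 107.9, 101 and 86.1 CPM in Sam68 KO, and 137, 143 and 98.7 CPM in WT. The Quaking KO libraries lay below all others, while the Sam68 KO and WT ranges overlapped. The group means were 63.1 ± 14.1 CPM in Quaking KO, 98.4 ± 11.2 in Sam68 KO and 126 ± 23.9 in WT (SD, n = 3 each). Hand1 fell in Quaking KO relative to WT with a log2 fold change of -1.02 (SE 0.22, edgeR adjusted p = 0.00100). The call was kept in each of the 14 alternative settings (log2 fold changes -1.23 to -0.87). Quaking KO and WT at day 10 lay in different pools, and no setting tells pool from line. Hand1 was also lower in Quaking KO than in Sam68 KO, within pool MIX_3, at a log2 fold change of -0.64 (SE 0.22, edgeR adjusted p = 0.0318). That call was lost without Quaking KO replicate 1 (0.0937) or 2 (0.141), without Sam68 KO replicate 1 (0.123) or 2 (0.0808), with RLE scaling (0.0651) and with no filter on low counts (0.0863). Between Sam68 KO and WT the log2 fold change of Hand1 was -0.38 (SE 0.21, edgeR adjusted p = 0.826). Against day 0, with 6, 20 and 16 counts over the 3 libraries of Quaking KO, Sam68 KO and WT, the day 10 level of Hand1 was 89.8-fold, 118-fold and 232-fold higher in the pooled counts. Of the 6 Quaking KO counts 5 were in replicate 1, and the fitted log2 fold change of 6.42 became 8.10 without it.

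Hand2, the closest relative of Hand1, lay the other way. Its day 10 levels were 126, 112 and 165 CPM in Quaking KO, 74.6, 110.4 and 88.0 CPM in Sam68 KO, and 85.8, 97.0 and 84.6 CPM in WT. Every Quaking KO library exceeded every other day 10 library, the nearest being Sam68 KO replicate 2. The difference did not pass the threshold in either comparison. The log2 fold change of Hand2 was 0.58 against WT (SE 0.22, edgeR adjusted p = 0.0552) and 0.57 against Sam68 KO (SE 0.21, edgeR adjusted p = 0.0578). Hand2 passed with RLE scaling (0.0284 and 0.0246), with upper quartile scaling (0.0389 and 0.0417) and by DESeq2 (0.0118 and 0.00914). It also passed without Quaking KO replicate 2 (0.0336 and 0.0355) and, against Sam68 KO, without Sam68 KO replicate 2 (0.0323). Without the dominated libraries the log2 fold change against Sam68 KO was 0.84. There Sam68 KO keeps only replicate 1, its lowest library for Hand2. Against WT, Hand2 did not pass without the dominated libraries (0.55, 0.0578). Sam68 KO and WT had nearly the same Hand2 mean, 91.0 ± 18.1 CPM in Sam68 KO and 89.1 ± 6.87 CPM in WT (log2 fold change 0.01, SE 0.22), and its sign turned under several settings. From day 0, Hand2 rose at least 376-fold in Quaking KO, against a floor of 3 counts over the group. It rose 266-fold in Sam68 KO, with a 95% counting interval of 128 to 663, and 809-fold in WT, with an interval of 276 to 3928.

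The balance of the pair describes these same levels without any scaling between libraries. Hand1 made up 30.6%, 32.6% and 32.5% of the Hand1 and Hand2 counts in Quaking KO at day 10, 59.1%, 47.9% and 49.5% in Sam68 KO, and 61.5%, 59.5% and 53.8% in WT. The widest exact binomial 95% intervals were 24.2% to 37.6% in Quaking KO (196 counts), 42.1% to 56.8% in Sam68 KO (188 counts) and 42.2% to 65.2% in WT (78 counts), and no Quaking KO interval reached one of another line. The means were 31.9 ± 1.13% in Quaking KO and 58.3 ± 3.95% in WT (SD, n = 3), a difference of -26.4 percentage points (two-sided exact permutation test, p = 0.1, the smallest that 3 against 3 allows). Against Sam68 KO, at 52.2 ± 6.10%, the difference was -20.2 points (exact p = 0.1). Leaving out any 1 library left the differences at -28.6 to -24.8 points against WT and -22.4 to -16.7 points against Sam68 KO. The pair was looked at after its levels had been seen. Every Quaking KO library lay below all others for Hand1 and above all others for Hand2. Its shares therefore had to lie apart from those of the other lines, and the exact p of 0.1 had to follow. They restate those levels and are not further support. In the T-box pair, Tbx5 made up 9.74%, 11.9% and 6.84% of the Tbx5 and Tbx20 counts in Quaking KO, 7.59%, 7.47% and 9.32% in Sam68 KO, and 7.33%, 6.30% and 3.33% in WT. The Quaking KO and WT ranges overlapped (exact p = 0.2), as did the Quaking KO and Sam68 KO ranges (exact p = 0.6), while all Sam68 KO shares lay above those of WT (exact p = 0.1). Over these 6 comparisons the lowest p adjusted by Benjamini-Hochberg was 0.2.

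**Figure D2:**
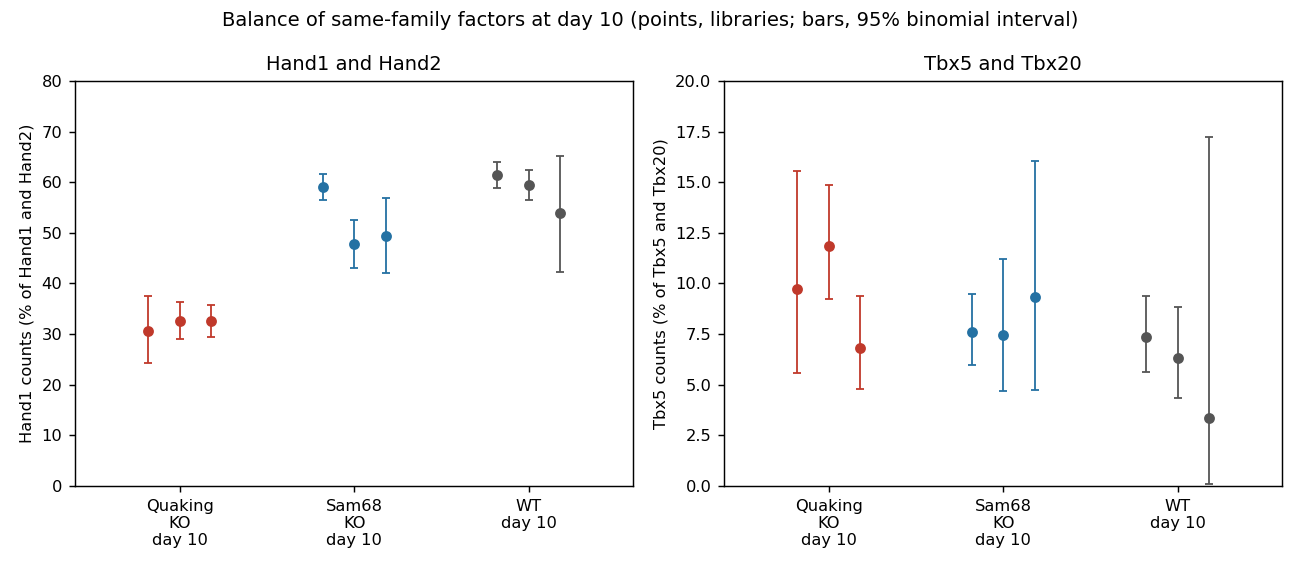
Hand1 as a percentage of Hand1 and Hand2 counts (left) and Tbx5 as a percentage of Tbx5 and Tbx20 counts (right) in each day 10 library, with exact binomial 95% intervals. Hand1 lies at 30.6% to 32.6% in the 3 Quaking KO libraries and at 47.9% or more in the other 6, while the Tbx5 shares of Quaking KO overlap those of both other lines.

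Mef2c, which binds DNA with other cardiac factors and is needed for heart looping in the mouse, was higher in Quaking KO embryoid bodies. It measured 24.1, 49.3 and 44.6 CPM in Quaking KO, 18.6, 15.3 and 30.6 CPM in Sam68 KO, and 15.3, 23.7 and 14.1 CPM in WT. All Quaking KO libraries lay above the WT libraries, replicate 1 only just, and overlapped with Sam68 KO through that replicate. Against WT the log2 fold change of Mef2c was 1.12 (SE 0.34, edgeR adjusted p = 0.0191). The call was lost without Quaking KO replicate 2 (0.0925) or 3 (0.0718), without WT replicate 1 (0.110) and after thinning every library to the smallest total (0.0517). Against Sam68 KO it was 0.98 (SE 0.34, edgeR adjusted p = 0.0379), and 7 of 14 alternative settings lost the call. Among them were leaving out Quaking KO replicate 2 (0.160) or 3 (0.122), Sam68 KO replicate 1 (0.131) or 2 (0.161), or all libraries dominated by few features (0.0902). Between Sam68 KO and WT the log2 fold change of Mef2c was 0.14 (SE 0.35, edgeR adjusted p = 1), and its sign turned under several settings. From day 0 Mef2c rose at least 122-fold in Quaking KO, from a group with no count. The ratio was 215 in Sam68 KO (2 counts at day 0, both in replicate 3, 95% counting interval 58.9 to 1791) and 125 in WT (4 counts, interval 48.0 to 462).

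Myocd, the serum response factor coactivator, differed in the other KO line. At day 10 it measured 10.2, 9.04 and 7.85 CPM in Quaking KO, 28.1, 26.8 and 14.8 CPM in Sam68 KO, and 6.00, 9.08 and 2.35 CPM in WT. Each Sam68 KO library lay above all Quaking KO and WT libraries, whose ranges overlapped. Myocd was higher in Sam68 KO than in WT, with a log2 fold change of 1.79 (SE 0.36) and an edgeR adjusted p of 0.0429. In that comparison 24 of 13701 genes were called, 0.175% of those tested. The call was lost without Sam68 KO replicate 1 (0.220) or 2 (0.286) and without WT replicate 1 (0.294) or 2 (0.0783). It was kept without WT replicate 3, which held 1 Myocd count (0.0399), and lost when the 3 dominated libraries were left out (log2 fold change 1.91, 0.116), where Sam68 KO keeps 1 library and is assumed to vary like the other groups. It was also lost after thinning (0.201) and in a fit of only these groups (0.0852). Its log2 fold change stayed between 1.61 and 2.16 in all settings. Within pool MIX_3, Myocd was lower in Quaking KO than in Sam68 KO, at a log2 fold change of -1.43 (SE 0.35) and an edgeR adjusted p of 0.00466. This call was kept in 13 of 14 alternative settings and lost without Sam68 KO replicate 1 (0.0569). Between Quaking KO and WT the log2 fold change of Myocd was 0.37 (SE 0.38, edgeR adjusted p = 0.537). The rise of Myocd from day 0 was at least 24.0-fold in Quaking KO, 37.3-fold in Sam68 KO (95% counting interval 22.6 to 66.1) and 27.2-fold in WT (12.6 to 69.7).

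**Figure D3:**
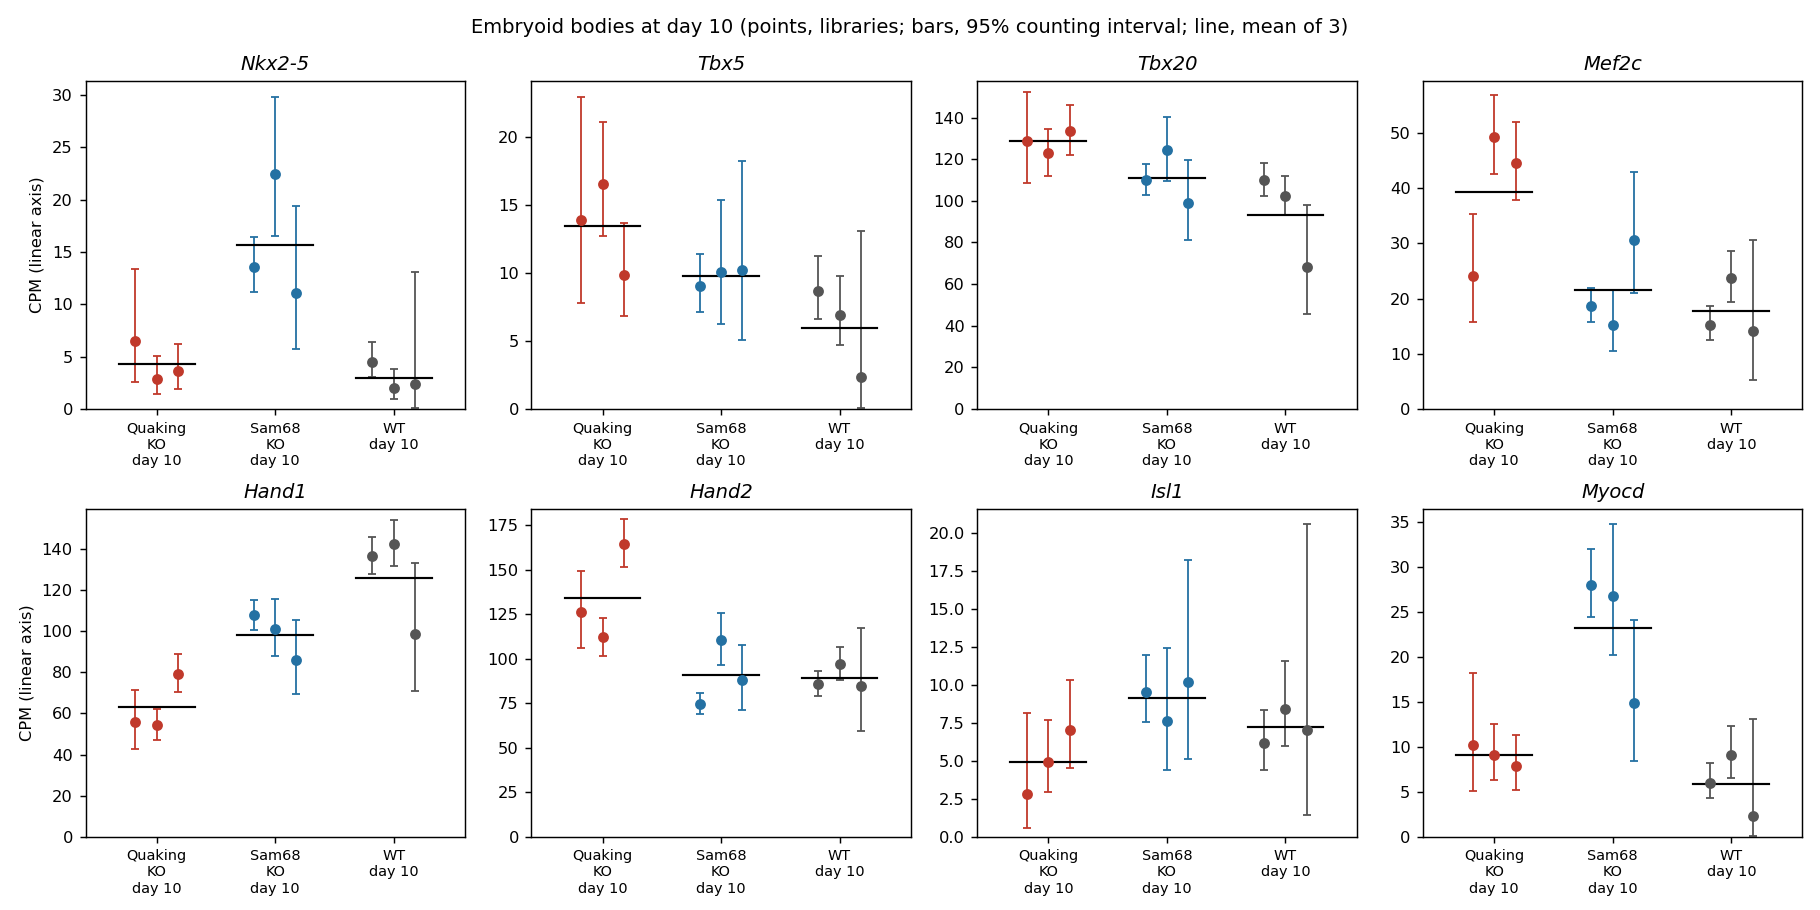
CPM (linear axes from 0) of the 8 genes in the 9 day 10 libraries, with 95% Poisson counting intervals and a line at each mean of 3. Hand1 is lowest and Hand2 highest in Quaking KO, and Nkx2-5 and Myocd are highest in Sam68 KO, while the intervals of WT replicate 3 are wide.

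Nkx2-5, the homeodomain factor, followed the order seen for Myocd. It measured 6.49, 2.84 and 3.64 CPM in Quaking KO, 13.6, 22.5 and 11.1 CPM in Sam68 KO, and 4.50, 1.99 and 2.35 CPM in WT at day 10. The Sam68 KO libraries again lay above all Quaking KO and WT libraries, which overlapped. Nkx2-5 was lower in Quaking KO than in Sam68 KO, at a log2 fold change of -2.00 (SE 0.51) and an edgeR adjusted p of 0.00502. The call was kept in 12 of the 13 alternative settings that tested it and lost without the dominated libraries (log2 fold change -1.80, adjusted p = 0.0515). Between Sam68 KO and WT its log2 fold change was 2.29 (SE 0.52), the largest of the 8, but it missed the threshold (edgeR adjusted p = 0.0725). It passed there with no filter on low counts (0.0134) and by DESeq2 (0.0184), and had 2.02 (0.540) without the dominated libraries. Between Quaking KO and WT the log2 fold change was 0.28 (SE 0.56, edgeR adjusted p = 0.772). Counts were low, with 31 in Quaking KO, 167 in Sam68 KO and 40 in WT over 3 libraries. From day 0, where each line had 4 to 21 counts, the log2 fold change of Nkx2-5 was 2.99 in Quaking KO (SE 0.74), 4.00 in Sam68 KO (SE 0.53) and 2.51 in WT (SE 0.59). The WT call was lost without WT day 10 replicate 1 (edgeR adjusted p = 0.0506).

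Isl1, which marks progenitors of the second heart field, had few counts and was not called between lines. It measured 2.78, 4.91 and 7.01 CPM in Quaking KO, 9.56, 7.65 and 10.2 CPM in Sam68 KO, and 6.15, 8.42 and 7.05 CPM in WT at day 10. The Quaking KO libraries lay below the Sam68 KO ones and overlapped with WT. The log2 fold change of Isl1 was -0.80 for Quaking KO over Sam68 KO (SE 0.56, edgeR adjusted p = 0.328), -0.47 for Quaking KO over WT (SE 0.57, 0.609) and 0.33 for Sam68 KO over WT (SE 0.55, 1). Against day 0 its log2 fold change was 3.27 in Quaking KO, 3.72 in Sam68 KO and 2.87 in WT. All 4 day 0 counts in Quaking KO came from replicate 2, and without that library the Quaking KO value was 7.72. It was 2.496 without replicate 1 and 2.56 without replicate 3. Without the dominated libraries the log2 fold change of Isl1 at day 10 was -0.87 for Quaking KO over Sam68 KO, -0.47 for Quaking KO over WT and 0.40 for Sam68 KO over WT, again not called.

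Neither T-box gene was called between lines at day 10. Tbx20, which acts in heart chamber formation, measured 129, 123 and 134 CPM in Quaking KO, 110.2, 124 and 99.1 CPM in Sam68 KO, and 109.9, 102 and 68.1 CPM in WT at day 10. The Quaking KO range lay above that of WT and overlapped with that of Sam68 KO. Its log2 fold change was 0.40 for Quaking KO over WT (SE 0.21, edgeR adjusted p = 0.181), 0.20 for Sam68 KO over WT (SE 0.21, 0.970) and 0.20 for Quaking KO over Sam68 KO (SE 0.21, 0.534). The day 10 over day 0 log2 fold change of Tbx20 was 5.56 in Quaking KO (SE 0.31), 4.81 in Sam68 KO (SE 0.26) and 4.32 in WT (SE 0.25). Tbx5, known for its part in the first heart field and the forelimb, measured 13.9, 16.5 and 9.81 CPM in Quaking KO, 9.06, 10.03 and 10.2 CPM in Sam68 KO, and 8.70, 6.87 and 2.35 CPM in WT. Both KO ranges lay above that of WT, whose lowest value is the 1 count of replicate 3. The log2 fold change of Tbx5 was 0.92 for Quaking KO over WT (SE 0.45, edgeR adjusted p = 0.142) and 0.45 for Sam68 KO over WT (SE 0.45, 0.964). From 2, 4 and 2 day 0 counts in Quaking KO, Sam68 KO and WT, Tbx5 rose 55.5-fold (95% counting interval 15.02 to 464), 52.6-fold (19.9 to 197) and 104-fold (28.1 to 875). Both Quaking KO counts at day 0 were in replicate 3. The fitted log2 fold change of Tbx5 in Quaking KO was 5.66, against 9.06 without that library and 4.96 without replicate 1, and in Sam68 KO it was 5.61, against 6.51 without day 0 replicate 2. Without the dominated libraries, Tbx5 at day 10 had 0.76 for Quaking KO over WT, 0.21 for Sam68 KO over WT and 0.55 for Quaking KO over Sam68 KO, and Tbx20 had 0.27, 0.06 and 0.21, none of them called.

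Set against all genes tested, the calls at day 10 were as follows. In Quaking KO vs WT, 1 of 8 was higher (Mef2c), where 11.1% of all genes were, and 1 lower (Hand1), where 12.8% were, so 2 of 8 against 23.9% lie near the background. In Sam68 KO vs WT, 1 of 8 was higher (Myocd), where 0.073% of all genes were, and 0 lower, where 0.102% were. In Quaking KO vs Sam68 KO, the only one of these comparisons within a pool, Mef2c was higher and Nkx2-5, Hand1 and Myocd lower, 4 of 8 where 23.7% of all genes were called, 10.6% higher and 13.0% lower. Of all calls in that comparison 44.9% were higher in Quaking KO with TMM scaling and 55.5% with RLE scaling. The members' median log2 fold change was 0.39 in Quaking KO vs WT, 0.27 in Sam68 KO vs WT and -0.22 in Quaking KO vs Sam68 KO, where all genes had medians of -0.03, -0.01 and -0.03. The 3 comparisons share libraries by pairs and are not independent of each other.

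**Figure D4:**
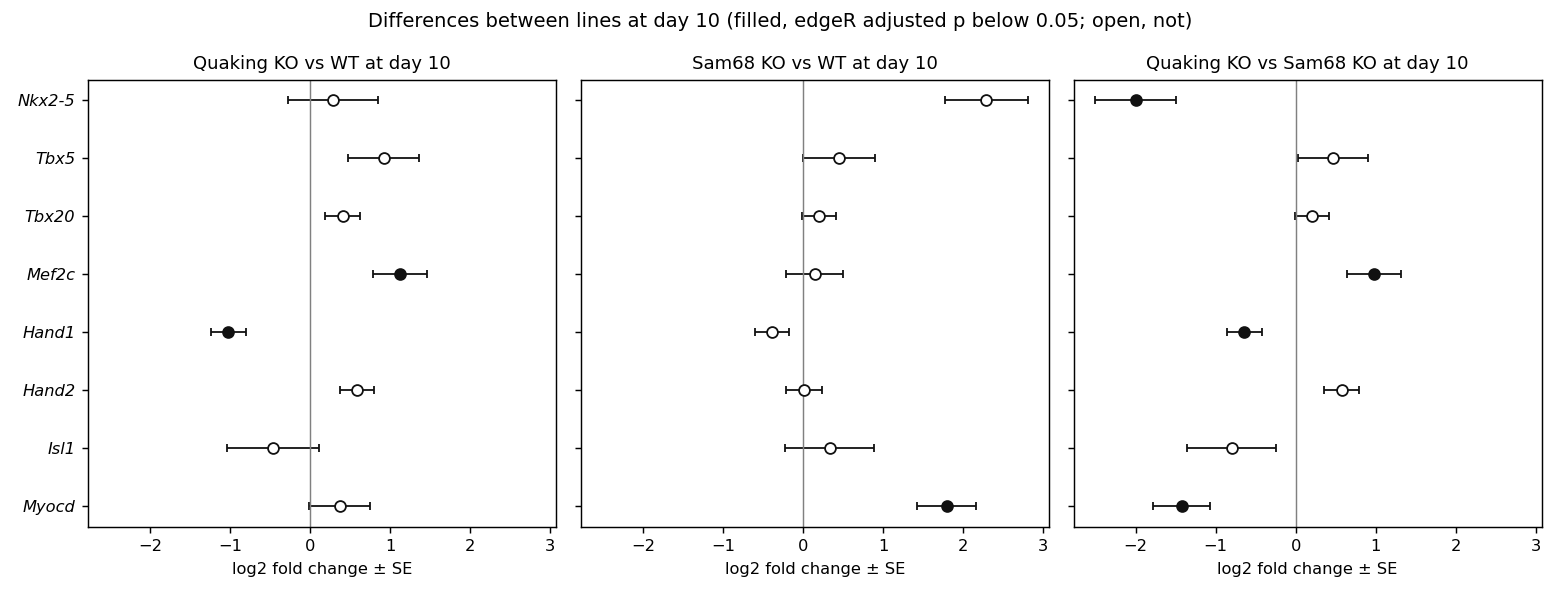
Log2 fold changes at day 10 with standard errors for the 8 genes in Quaking KO vs WT (left), Sam68 KO vs WT (middle) and Quaking KO vs Sam68 KO (right), filled where the edgeR adjusted p is below 0.05. Hand1 and Mef2c are filled at the left, Myocd in the middle, and Nkx2-5, Mef2c, Hand1 and Myocd at the right.

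Whether the change over time differed between lines was tested as an interaction. For the day effect of Quaking KO minus that of WT, 0 of 8 genes passed edgeR's test, where 8.88% of all genes did. At an unadjusted p below 0.05 there were 2 of 8, where 22.5% of all genes were. DESeq2 called 1, Tbx20 (log2 difference 1.23, adjusted p = 0.0482). By edgeR the Tbx20 difference was 1.24 (SE 0.41, adjusted p = 0.0624), and it passed without Quaking KO day 0 replicate 2 (1.60, adjusted p = 0.0302) and was 0.77 (0.299) without Quaking KO day 0 replicate 3. For Sam68 KO minus WT, 0 of 8 passed by edgeR, 0 at an unadjusted p below 0.05 and 0 by DESeq2. Of all genes, edgeR called 0.431%, and 8.98% had an unadjusted p below 0.05.

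Across the 9 day 10 libraries, some members varied together and others did not. Pearson's r of log2 CPM, a description over libraries of 3 lines with unequal depth, was 0.89 for Tbx5 with Tbx20 and 0.83 for Nkx2-5 with Myocd. It is given with no test. It was -0.54 for Hand1 with Hand2 and -0.63 for Hand1 with Mef2c. Among 9016 features with a mean of at least 10 CPM, the one most like Tbx20 was ENSMUSG00000019505.7 (r = 0.99) and the one most like Hand2 was ENSMUSG00000052512.17 (r = 0.98). Each is the highest r among 9016 features over only 9 libraries. Such values are not particular to these 2 members, since the highest r ran from 0.93 to 0.99 over all 8. ENSMUSG00000052512.17 averaged 98.6 CPM in Quaking KO, 69.5 in Sam68 KO and 68.8 in WT.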

How the data were processed

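Per the file headers and values, the authors deposited 1 table of raw counts per gene for each of the 18 samples, whole numbers for 51826 versioned Ensembl identifiers. The tools that the submitters' processing notes name are STAR 2.5.3a, Bowtie2 and bcl2fastq 2.17.1.14, and the builds are mm10 and GRCm38. Counting program, annotation and strand setting: not given in the sources used here.

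Titles gave each library's group and number, and descriptions its pool. edgeR 4.0.16 (R 4.3.3) fitted all 18 libraries with a mean per group, TMM scaling and its default filter, which kept 13701 genes and all 8 members. The robust quasi-likelihood test was two-sided, with Benjamini-Hochberg adjustment over all 13701 genes, for 11 comparisons. SE is the log2 fold change over the root of F. CPM use TMM sizes, errors are SD over 3 libraries, and p-values measure only the spread between these libraries. Intervals (95%) and floors (3 counts) reflect counting error alone. No molecular identifiers separate copies of a fragment, so that error may be larger than they show. The script was tested on simulated data. Every replicate pair differed by more than sampling noise, with a chi-square of at least 4.80 times its degrees of freedom.

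Alternatives were scaling by RLE or by upper quartile, all genes unfiltered, DESeq2 1.42.0, only the compared groups, a replicate block, thinning, and leaving out libraries. All 8 members are named whatever their result, with the single feature most like a member for the 2 members of highest CPM. Lists of other cardiac and cell type genes could not be matched, because 0 of the 49997 reference genes carry an Ensembl identifier. Members and lists were chosen with earlier results of these data known.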

Additional observations from a re-analysis of the deposited data

How the results depend on the processing

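Counts below are members called of 8 unless stated. For day 10 against day 0, leaving out 1 library gave 8 in both KO lines and 7 to 8 in WT, and thinning 6 of the 6 tested in each line. A fit of the WT groups alone called 5, all that its filter left. In Quaking KO vs WT at day 10, leaving out 1 library gave 1 to 2 and thinning 1 of 6. In Sam68 KO vs WT, leaving out 1 library gave 0 to 1, thinning 0, leaving out the dominated libraries 0, fitting these groups alone 0, no filter 2 and DESeq2 2. In Quaking KO vs Sam68 KO, leaving out 1 library gave 1 to 4, with 1 when Sam68 KO replicate 1 was left out, and thinning 2 of 6. The day effect of Quaking KO minus WT gave 0 to 1 on leaving out 1 library and 1 by DESeq2. The cause of these shifts was not tested. At day 0 every setting gave 0.

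Of the 48 differences of day 10 with day 0 or between lines at day 10, the sign of 3 turned under some setting, none of them called. It also turned for 9 of 24 differences between lines at day 0 and 6 of 16 day effects compared between lines, with 0 called. On the log2 scale, the first 3 were these. Nkx2-5 in Quaking KO vs WT ran from -0.070 to 0.93 on leaving out 1 library. Mef2c in Sam68 KO vs WT ran from -0.11 to 0.46 on leaving out 1 library, with -0.024 after thinning and -0.052 without the dominated libraries. Hand2 in Sam68 KO vs WT ran from -0.16 to 0.13 on leaving out 1 library, with -0.0085 by RLE scaling, -0.070 with no filter, -0.29 without the dominated libraries, -0.012 by DESeq2 and -0.0026 with the replicate block.

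The replicate block used the numbers in the titles. Deviations of same-numbered libraries correlated at -0.19 to 0.44 over 45 pairs, 6 of them over 0.1. The highest were replicates 1 (0.44) and 3 (0.27) of Sam68 KO with WT at day 10. Differently numbered libraries were not compared, so whether the numbers pair the samples was not settled. With the block, Quaking KO vs WT, Sam68 KO vs WT and Quaking KO vs Sam68 KO at day 10 had 2, 1 and 3 called. In WT day 10 replicate 3 a level under 7.05 CPM rests on fewer than 3 counts.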
